A study of Mus musculus with 6 samples.

Results

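The 10 genes described here encode DOT1L and its cofactors (Dot1l, Mllt10, Mllt6), the MLL methyltransferase with menin and LEDGF (Kmt2a, Men1, Psip1), and 4 subunits of the PAF complex (Paf1, Ctr9, Cdc73, Leo1). They were taken by symbol from a table of 55487 genes, and all 10 passed the filter on low values that left 18766 genes to test. Bulk RNA-seq had been run on 6 libraries of Kit-positive bone marrow cells of the mouse, Kit being the stem cell factor receptor of haematopoietic progenitors, with all 6 labelled batch 1. In the WT group (n = 3) a lentivirus supplied wild type MLLT3, and in the DM group (n = 3) it supplied MLLT3 with the substitutions K63E and K67E, which the series title places in a study of the YEATS domain. Cells of both groups were sorted, then kept for 8 days in methylcellulose with FLT3 ligand at 10 ng/mL and other cytokines at 20 ng/mL. Both also received 200 nM 4-hydroxytamoxifen, which served to remove the endogenous Mllt3 gene. Both groups therefore carry a vector and the deletion treatment, and no library of untransduced or undeleted cells was compared. The Cre driver, the Mllt3 allele, the age of the mice and the origin of the replicates (separate animals, cultures or aliquots) are not given in the sources used here, so the p-values measure only the spread between these libraries.

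DOT1L is the enzyme that methylates histone H3 on a lysine of the nucleosome core, and it acts in a complex with MLLT10 (AF10) or MLLT6 (AF17) and with the YEATS proteins MLLT3 (AF9) or MLLT1 (ENL). MLL, the product of Kmt2a, methylates the H3 tail at active promoters, and menin and LEDGF hold it on chromatin. The PAF complex travels with RNA polymerase II, promotes ubiquitination of histone H2B, which in turn stimulates DOT1L and MLL-type enzymes, and binds MLL directly. In blood progenitors these proteins maintain Hox and Meis1 expression, and fusions of MLL to MLLT3, MLLT1, MLLT10 or MLLT6 cause leukaemia. The comparison of DM with WT asks whether the transcripts of MLLT3's partners differ once its YEATS domain carries the substitutions.

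Values are given as deposited, as regularized logs (rlog, log2 scale), and a change is the DM mean minus the WT mean. Mllt3, the gene both deleted and supplied, gave rlog values of 12.87, 12.60 and 12.44 in the order of the WT replicates and 12.44, 12.03 and 11.99 in that of the DM replicates. Its change was -0.48 (SE 0.137, limma adjusted p 0.0448), and endogenous and vector transcripts are not separated in these values. The call was lost without WT replicate 1 (-0.36, adjusted p 0.152), WT replicate 2 (-0.50, 0.0606), DM replicate 2 (-0.42, 0.150) or DM replicate 3 (-0.40, 0.161), and at the same change with no filter on the mean (adjusted p 0.0651) or no mean-variance trend (0.0542). The culture was mixed at harvest. Kit (14.29 to 14.90 over the 6 libraries) and Gata2 (14.03 to 14.53) were high, as were the mast cell gene Cpa3 (17.60 to 18.26) and the macrophage and granulocyte gene Lyz2 (17.60 to 19.00). Lists of markers moved with the groups, counted at a limma adjusted p under 0.05, which 13.9% of all tested genes passed. By this count 13 of 16 neutrophil genes fell and 0 rose, and 10 of 14 monocyte and macrophage genes rose and 2 fell. Of the eosinophil genes 3 of 7 fell and 0 rose, and 14 of 16 proliferation genes fell. Mmp8 of the neutrophil list was higher in DM without overlap (0.50, limma adjusted p 0.0521) but not counted. The log2 of the summed level of the proliferation list was 16.26 to 16.42 in WT and 15.85 to 16.03 in DM, that of the neutrophil list 18.57 to 18.99 and 17.19 to 18.04, and that of the monocyte and macrophage list 18.30 to 18.99 and 19.28 to 19.65. That of the eosinophil list was 15.05 to 15.15 in WT and 13.54 to 14.17 in DM. The megakaryocyte list (14.22 to 14.48 in WT, 14.50 to 14.88 in DM) and the lymphoid list (11.32 to 11.98 and 12.31 to 12.49) also lay apart by this sum. In each, 2 of 7 tested genes were called, in the megakaryocyte list 2 higher and in the lymphoid list 1 higher and 1 lower. Most of the lymphoid sum is Il7r (11.25 to 11.94 in WT, 12.28 to 12.47 in DM), the 1 tested lymphoid gene with a higher mean in DM. The sums of the mast cell and basophil, erythroid and stem and progenitor lists overlapped between groups. Single genes of these lists were still called. Of 10 mast cell and basophil genes 3 rose and 1 fell, while Cpa3 is the largest part of that sum. Of 10 stem and progenitor genes 1 rose and 2 fell, and of 8 tested erythroid genes 0 were called. No gene of these lists was listed at 0 in every library, and their part in the results for the 10 genes was not tested. In bulk samples, fewer cells of a type and less RNA per cell cannot be told apart.

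Mllt6 was the 1 member of the 10 that passed the threshold, and it rose in DM. Over all genes tested, 13.9% were called in either direction and 9.2% were called higher in DM, so 1 call of 10 is near the background. That background fell to 5.96% when DM replicate 2 was left out, 6.31% for WT replicate 1 and 8.19% for DM replicate 3. Of all called genes 66.1% were higher in DM, and 51.3% after quantile normalization. Among the 5059 tested genes with a mean of 10 to 13, the range in which all 10 members lie, 23.9% were called. WT and DM libraries were fully apart for 5 of the 10 members (Mllt6, Dot1l and Ctr9 higher in DM, Men1 and Psip1 lower), against 35.8% of all tested genes and 48% of the genes in that range. An unadjusted p under 0.05 was found for 4 members (Mllt6, Psip1, Dot1l and Men1), against 28.9% of all tested genes. The median change of the 10 members was 0.05, beside 0.01 over all tested genes and 0.11 over genes in the range of 10 to 13. Quantile normalization took the last of these medians to 0.01, so that a member with a change near 0.11 moved with genes of its level, and members at or below 0 lay under them.

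Mllt6 (ENSMUSG00000038437.11; GRCm38 chromosome 11, 97663414 to 97685463, plus strand) encodes AF17, a cofactor of DOT1L with PHD fingers and a leucine zipper. The 3 WT libraries gave rlog values of 11.26, 11.45 and 11.40, and the 3 DM libraries 11.74, 11.70 and 11.74. All 3 DM libraries were above all 3 WT libraries, and the DM libraries lay closer together. The mean went from 11.37 ± 0.0960 (SD, n = 3) to 11.72 ± 0.0255, a change of 0.35 (SE 0.0709, 95% interval 0.20 to 0.51, limma adjusted p 0.0114), which is 1.28-fold on the shrunken rlog scale. The call was kept in 13 of 14 alternatives and lost without WT replicate 1, the lowest library (0.30, adjusted p 0.0608, against 0.00525 to 0.0608 over the alternatives). Quantile normalization gave 0.24 (adjusted p 0.0326). The tested protein-coding genes on either side of Mllt6, Epop (-0.24, limma adjusted p 0.208) and Cisd3 (0.06, 0.719), were not called. Neighbours of other members were called higher: Ap3d1 beside Dot1l (0.27, 0.034), Mapk6 beside Leo1 (0.29, 0.0489), and Dnajc1 and B3galt2, given below. A relation between neighbours was not tested.

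Dot1l (ENSMUSG00000061589.14; chromosome 10, 80755206 to 80795461, plus strand), the methyltransferase itself, gave rlog values of 11.67, 11.76 and 11.57 in the order of the WT replicates and 11.93, 11.82 and 11.86 in that of the DM replicates. The groups did not overlap, although the lowest DM library and the highest WT library were close. The change was 0.20 (SE 0.0740, 95% interval 0.04 to 0.37) and did not pass the threshold (limma adjusted p 0.106). It was 0.25 without WT replicate 2, where it was called (adjusted p 0.0456), and 0.10 after quantile normalization (adjusted p 0.217).

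Mllt10 (ENSMUSG00000026743.16; chromosome 2, 18055237 to 18212388, plus strand) encodes AF10, the paralog of AF17 that occupies the same place in the DOT1L complex. The 3 WT libraries gave rlog values of 10.99, 11.07 and 10.93, and the 3 DM libraries 10.98, 10.83 and 10.91. The groups overlapped, with DM replicate 1 among the WT libraries. The change was -0.09 (SE 0.0711, 95% interval -0.25 to 0.07, limma adjusted p 0.423). After quantile normalization it was -0.19 and was called (adjusted p 0.0434), and without WT replicate 2 or DM replicate 2 it was -0.05. The annotation places Dnajc1, which was called higher (0.30, adjusted p 0.0236), on the opposite strand in overlap with Mllt10, and whether the counting used strand is not given in the sources used here, so reads of the overlap cannot be told apart.

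**Figure D1:**
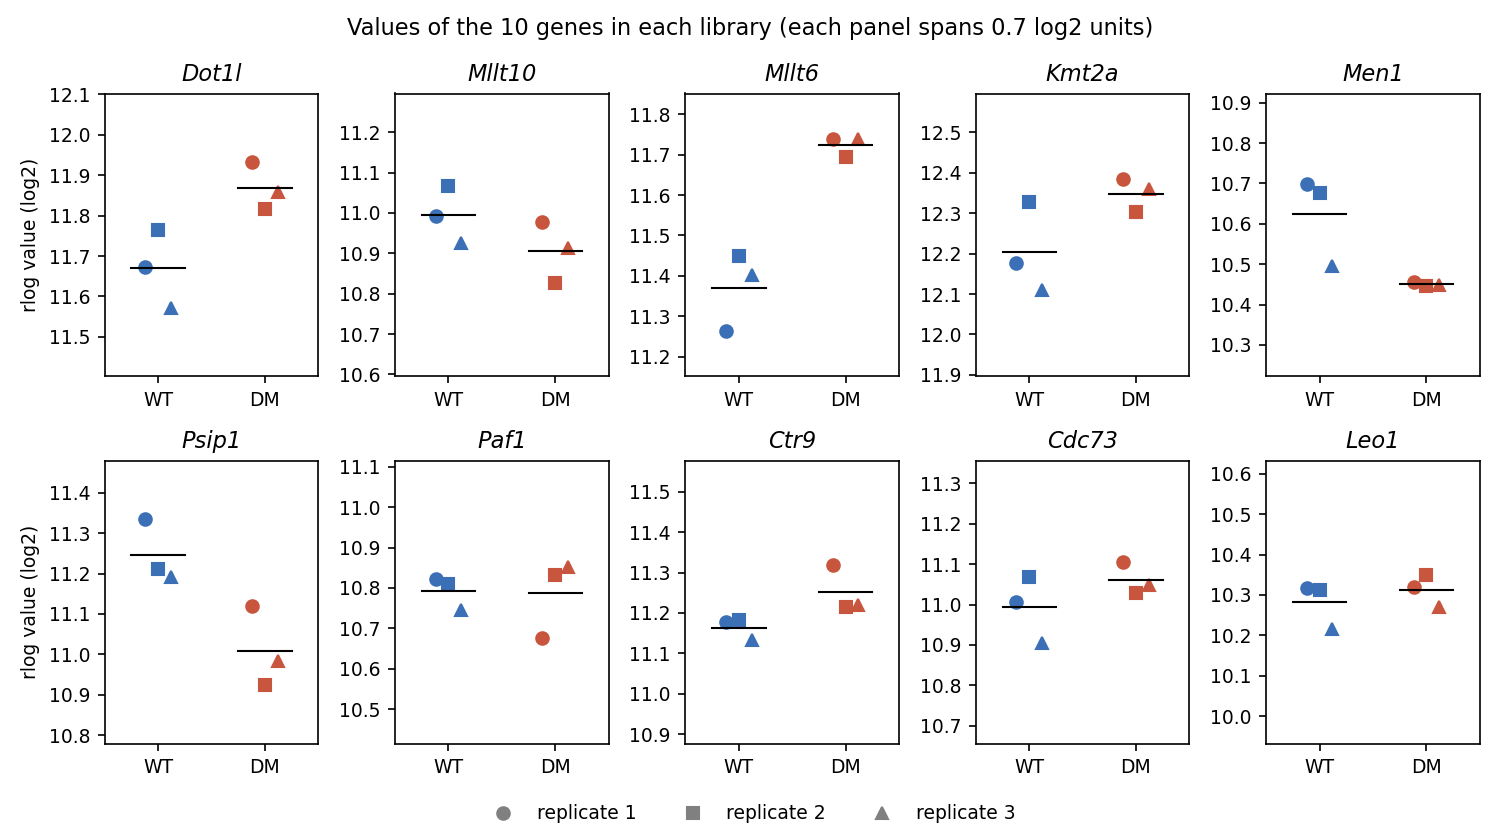
rlog value (log2 scale, vertical axis) of each of the 10 genes in the 3 WT (blue) and 3 DM (red) libraries, with symbols for the replicates and a line at each group mean; every panel spans the same range on its own axis. Mllt6, Dot1l and Ctr9 lie higher in DM without overlap, Men1 and Psip1 lower without overlap, and the other 5 genes overlap.

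The starts of 3 members are shown because Mllt6 was the called gene, Dot1l the member with the next highest change, and Men1 a member that lay on the other side. The sequences are the 250 bases before the RefSeq start on GRCm38.p6, written 5′ to 3′ on the gene's strand (plus for all 3), with each CG dinucleotide in capitals.
Mllt6, chr11:97663162-97663411: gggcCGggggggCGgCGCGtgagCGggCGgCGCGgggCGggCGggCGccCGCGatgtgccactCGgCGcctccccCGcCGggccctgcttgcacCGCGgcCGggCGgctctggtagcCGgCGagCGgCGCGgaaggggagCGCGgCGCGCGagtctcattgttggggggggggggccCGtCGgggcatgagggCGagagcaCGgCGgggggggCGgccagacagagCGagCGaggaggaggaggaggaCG
Dot1l, chr10:80754953-80755202: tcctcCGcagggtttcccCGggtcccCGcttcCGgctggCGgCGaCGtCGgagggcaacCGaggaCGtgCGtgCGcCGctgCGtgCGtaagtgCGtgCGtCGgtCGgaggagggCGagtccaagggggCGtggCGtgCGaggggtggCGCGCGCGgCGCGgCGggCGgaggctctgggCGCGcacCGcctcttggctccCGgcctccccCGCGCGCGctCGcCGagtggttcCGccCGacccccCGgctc
Men1, chr19:6334729-6334978: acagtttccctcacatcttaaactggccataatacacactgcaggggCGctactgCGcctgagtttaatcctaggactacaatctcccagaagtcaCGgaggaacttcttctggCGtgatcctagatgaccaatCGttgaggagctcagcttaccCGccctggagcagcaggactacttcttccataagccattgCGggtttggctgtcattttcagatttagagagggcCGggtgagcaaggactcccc
CG dinucleotides numbered 40 in the Mllt6 window, 44 in the Dot1l window and 8 in the Men1 window, beside a median of 6 and quartiles of 2 and 16 over 32851 RefSeq windows of the same length. The MLL protein carries a CXXC domain that binds unmethylated CG. RefSeq entries matched 8 of the 10 members, all but Psip1 and Ctr9. Beside the 3 shown, Kmt2a had 29, Cdc73 47, Leo1 21 and Paf1 11, while Men1 and Mllt10 have 3 entries each, with 8 to 10 and 4 to 36. The GC box GGGCGG, read on both strands with overlapping matches counted, occurred 6 times in the Mllt6 window, 2 times in that of Dot1l and 1 time in that of Men1, and 32.7% of all windows hold it. The CCAAT letters, also read on both strands, occurred in the window of Men1 (1 time) and not in those of Mllt6 and Dot1l, and 33.8% of all windows hold them. No binding or chromatin data accompany these counts, so they describe the sequences only.

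Kmt2a (ENSMUSG00000002028.13; chromosome 9, 44803355 to 44881296, minus strand) encodes MLL. The 3 WT libraries gave rlog values of 12.18, 12.33 and 12.11, and the 3 DM libraries 12.38, 12.30 and 12.36. WT replicate 2 lay above the lowest DM library, so the groups overlapped. The change was 0.14 (SE 0.0766, 95% interval -0.03 to 0.32, limma adjusted p 0.240), and it was 0.03 after quantile normalization (adjusted p 0.767). Its paralog Kmt2b changed by 0.04 (limma adjusted p 0.710) and Kmt2c by 0.15 (0.239).

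Men1 (ENSMUSG00000024947.17; chromosome 19, 6334979 to 6340891, plus strand) encodes menin, the adaptor between MLL and LEDGF. The 3 WT libraries gave rlog values of 10.70, 10.68 and 10.50, and the 3 DM libraries 10.46, 10.45 and 10.45. All 3 DM libraries were below all 3 WT libraries and nearly equal to one another, while WT replicate 3 was near them. The mean was 10.62 ± 0.112 (SD, n = 3) for WT against 10.45 ± 0.00559 for DM, so the change was -0.17 (SE 0.0724, 95% interval -0.34 to -0.01), which did not pass the threshold (limma adjusted p 0.147). It was called without WT replicate 3 (-0.24, adjusted p 0.0419), after centring each library on its median (-0.21, 0.0475) and after quantile normalization (-0.27, 0.0110).

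Psip1 (ENSMUSG00000028484.16; chromosome 4, 83455680 to 83486459, minus strand) encodes LEDGF, whose PWWP domain reads methylated H3 in transcribed genes. The 3 WT libraries gave rlog values of 11.33, 11.21 and 11.19, and the 3 DM libraries 11.12, 10.92 and 10.98. The groups did not overlap, and DM replicate 1 was the nearest to WT. The change was -0.24 (SE 0.0762, 95% interval -0.41 to -0.07, limma adjusted p 0.0682), the lowest change of the 10 members but short of the threshold. Psip1 was called in 6 of 14 alternatives: with a mean of at least 5 (-0.24, adjusted p 0.0472), with protein-coding genes only (-0.24, 0.0493), after centring on the median (-0.27, 0.0329), after the correction for GC content and length (-0.29, 0.0262), after quantile normalization (-0.34, 0.0166) and with a replicate block (-0.24, 0.0157). In the 6 fits without 1 library it was not called, and its change ran from -0.29 to -0.19. Snapc3 overlaps Psip1 on the opposite strand (0.13, limma adjusted p 0.450). The changes of Psip1 and Men1 had the sign of the proliferation list, whose median change was -0.47, and a relation between them was not tested.

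None of the 4 PAF genes was called by limma, and none had an unadjusted p under 0.05. Paf1 (ENSMUSG00000003437.14; chromosome 7, 28392951 to 28399388, plus strand), the subunit that names the complex, gave rlog values of 10.82, 10.81 and 10.75 in the order of the WT replicates and 10.68, 10.83 and 10.85 in that of the DM replicates. DM replicate 1 was the lowest of the 6 libraries and the other DM libraries the highest. The change was -0.01 (95% interval -0.16 to 0.15, limma adjusted p 0.964), and it was 0.05 without DM replicate 1 (adjusted p 0.743).

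Ctr9 (ENSMUSG00000005609.16; chromosome 7, 111028951 to 111056377, plus strand), the scaffold subunit, gave rlog values of 11.18, 11.18 and 11.13 in the order of the WT replicates and 11.32, 11.22 and 11.22 in that of the DM replicates. The DM libraries were all above the WT libraries, by a margin of a few hundredths between the closest. The change was 0.09 (95% interval -0.06 to 0.23, limma adjusted p 0.389), and it turned to -0.01 after quantile normalization.

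Cdc73 (ENSMUSG00000026361.9; chromosome 1, 143598800 to 143702893, minus strand), which encodes the tumour suppressor parafibromin, gave rlog values of 11.01, 11.07 and 10.90 in the order of the WT replicates and 11.11, 11.03 and 11.05 in that of the DM replicates. WT replicate 2 lay among the DM libraries. The change was 0.07 (95% interval -0.09 to 0.22, limma adjusted p 0.537), and it turned to -0.03 after quantile normalization. B3galt2, a gene within the span of Cdc73 on the other strand, was called higher (0.30, adjusted p 0.0110).

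Leo1 (ENSMUSG00000042487.6; chromosome 9, 75441524 to 75466432, plus strand), which pairs with Paf1 in the complex, gave rlog values of 10.32, 10.31 and 10.21 in the order of the WT replicates and 10.32, 10.35 and 10.27 in that of the DM replicates. The groups overlapped: DM replicate 3 lay within the WT range, and DM replicate 2 and, narrowly, DM replicate 1 lay above every WT library. The change was 0.03 (95% interval -0.11 to 0.18, limma adjusted p 0.776), and it turned to -0.04 after quantile normalization. Over the 4 PAF genes the intervals reached from -0.16 to 0.23. The remaining PAF subunits changed by 0.02 (Rtf1, limma adjusted p 0.870) and 0.03 (Wdr61, 0.789), and these 2 values also turned negative after quantile normalization, to -0.09 and -0.05.

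**Figure D2:**
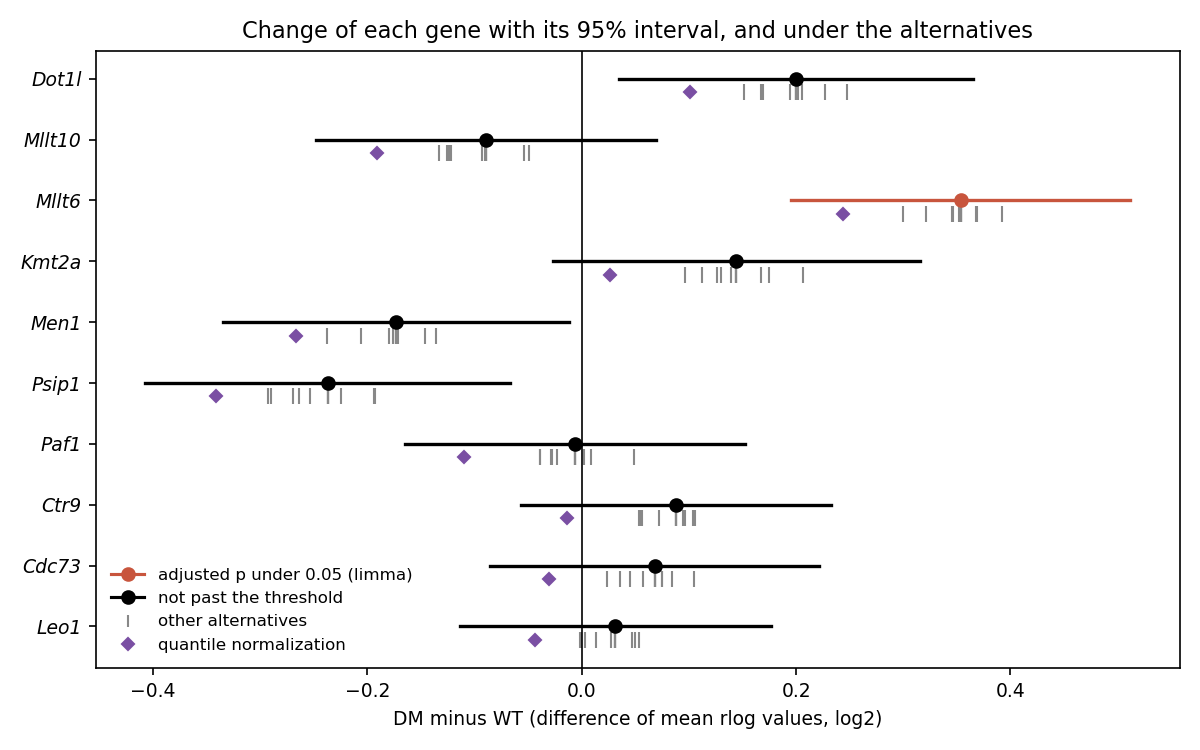
Change of each of the 10 genes (horizontal axis, DM minus WT on the log2 scale) with its 95% interval from limma; ticks under each point are the alternatives and the diamond is quantile normalization. Mllt6 at 0.35 is the 1 gene past the threshold, Psip1 at -0.24 and Men1 at -0.17 lie on the other side of 0, and the 4 PAF genes lie between -0.01 and 0.09.

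Libraries also differed within groups for most members. WT replicate 3 was the lowest of the WT libraries for 9 of the 10 members (Mllt6 was the exception), and DM replicate 2 was the lowest of the DM libraries for 8. The median over the 5059 genes with a mean of 10 to 13 was 11.05, 11.14 and 10.97 over the WT replicates in order, and 11.14, 11.16 and 11.14 over those of DM. By this median WT replicate 3 was low for genes of this level at large, and DM replicate 2 was not. The share of all genes for which each library was lowest was not computed, so the counts of members have no background beside them. DM replicates 2 and 3 were nearly equal for Men1 (10.446 and 10.448) and Ctr9 (11.215 and 11.220).

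A difference between 2 genes of one library is nearly free of such shifts, so 6 pairs of partners were compared within libraries by exact two-sided permutation tests. With 3 libraries against 3 the smallest p is 0.1, so none can pass the threshold. Mllt6 minus Mllt10 was 0.27, 0.38 and 0.48 in WT and 0.76, 0.87 and 0.83 in DM. The groups were well apart, with a gap of 0.44 between the means (exact permutation p 0.1, adjusted over the 6 pairs 0.2), which was 0.43 after quantile normalization and 0.39 to 0.49 with any 1 library left out. The balance of the paralogs AF17 and AF10 at the transcript level was further toward AF17 in all 3 DM libraries than in any WT library. This gap restates the changes of the 2 genes given above, and the pairs were chosen with earlier results of these data known.

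Dot1l minus Mllt10 was 0.68, 0.70 and 0.65 in WT and 0.95, 0.99 and 0.95 in DM. The libraries of each group agreed closely, and the gap of 0.29 between the means (exact permutation p 0.1, adjusted 0.2) was far larger than the SD within groups, 0.0262 in WT and 0.0237 in DM (n = 3). It ran from 0.28 to 0.30 with any 1 library left out.

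Kmt2a minus Men1, the enzyme against its adaptor, was 1.48, 1.65 and 1.61 in WT and 1.93, 1.86 and 1.91 in DM. The groups did not overlap, and the means differed by 0.32 (exact permutation p 0.1, adjusted 0.2), from 0.27 to 0.35 with any 1 library left out. The other 3 pairs overlapped between groups. Kmt2a minus Kmt2b differed by 0.10 (exact permutation p 0.2), Men1 minus Psip1 by 0.06 (0.5), and Cdc73 minus Paf1 by 0.07 (0.5), which rested on DM replicate 1 and was -0.0036 without it.

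**Figure D3:**
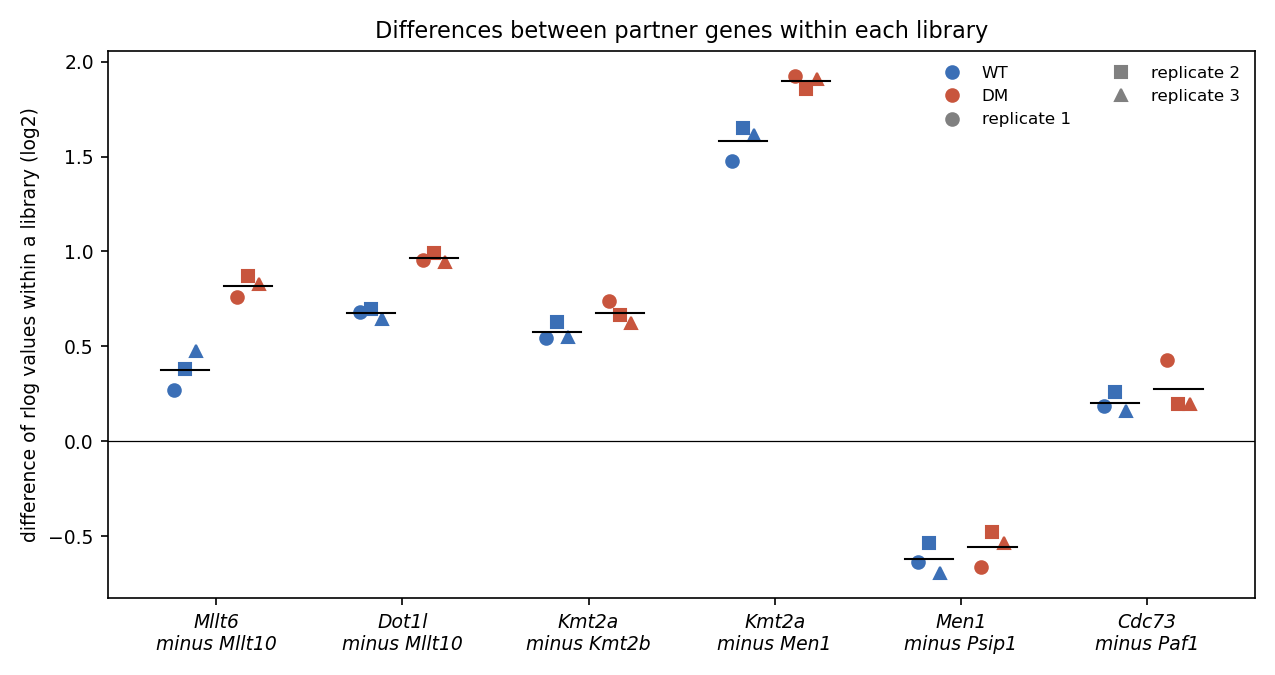
Difference between the rlog values of 2 partner genes within each library (vertical axis, log2 scale) for 6 pairs, with WT in blue, DM in red, symbols for replicates and lines at group means. Mllt6 minus Mllt10, Dot1l minus Mllt10 and Kmt2a minus Men1 do not overlap between groups, with mean gaps of 0.44, 0.29 and 0.32, and the other 3 pairs overlap. The share of other gene pairs that lie apart was not computed, and the pairs were chosen with earlier results known.

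To set the members' levels against one another, the log2 of the annotated exonic length in kilobases was subtracted from each rlog value. On this per-length scale Paf1 was highest (9.01 ± 0.0659, SD over 6 libraries), followed by Psip1 (8.78 ± 0.153), Mllt6 (8.65 ± 0.204), Dot1l (8.65 ± 0.131), Men1 (8.60 ± 0.118), Mllt10 (8.39 ± 0.0820), Kmt2a (8.22 ± 0.109), Ctr9 (8.21 ± 0.0631), Leo1 (8.02 ± 0.0476) and Cdc73 (6.89 ± 0.0690). Psip1, Mllt6, Dot1l and Men1 had no single order over the 6 libraries, since their order differed between the groups. All 3 DM libraries ran Mllt6, Dot1l, Psip1 and Men1 from high to low. In all 3 WT libraries Psip1 was above Men1 and Men1 above Dot1l, and Psip1 was above Mllt6. The SD over 6 libraries therefore holds the difference between groups as well as the spread within them. Kmt2a was above Ctr9 in 4 of 6 libraries, while the other neighbours kept their order in all 6. The order depends on the exonic length taken, which is long for Cdc73 (17613 bases over all annotated transcripts).

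The 3 genes whose 6 values, each centred on its own mean, lay nearest to those of Mllt6 were Slc23a2 (distance 0.0552 on the log2 scale), an ascorbate transporter, Rab20 (0.0655), a small GTPase of endosomes, and Pex11a (0.0880), a peroxisome protein. Their changes were 0.31 (limma adjusted p 0.0162), 0.36 (0.00985) and 0.31 (0.0208). Slc23a2 and Pex11a each lost the call without WT replicate 1 (0.27, adjusted p 0.0884, and 0.26, 0.0946), DM replicate 2 (0.33, 0.0593, and 0.30, 0.0740) or DM replicate 3 (0.30, 0.0668, and 0.32, 0.0568).

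Few other genes of the machinery were called. Of 44 genes in 6 lists (DOT1L complex, MLL and SET1 methyltransferases, their subunits and cofactors, PAF complex, H2B ubiquitin enzymes, and demethylases that oppose MLL), 43 were tested and 2 were called (4.65%, beside 13.9% of all tested genes and 23.9% of those with a mean of 10 to 13, where 35 of the 43 lie), Mllt6 higher and Mllt3 lower. Pagr1a was listed at 0 in all 6 libraries. The median change was 0.03, beside 0.11 over all genes in that range, and 29 of the 43 (67.4%) had a higher mean in DM, beside 74.1% of the genes in that range. The 33 tested genes other than the members ran from -0.48 (Mllt3) to 0.22 (Ube2a), and the groups did not overlap for 4 of them (12.1%, beside 35.8% of all tested genes and 48% of those in the range), Ube2a, Cxxc1, Ash2l and Wac. Ube2a, an E2 enzyme for histone H2B, stood at 10.48, 10.57 and 10.39 in WT libraries against 10.66, 10.77 and 10.67 in DM libraries, a change of 0.22 (limma adjusted p 0.0725), and it was called without WT replicate 2 (0.26, adjusted p 0.0373) and with the replicate block (adjusted p 0.0249). Cxxc1, the CG-binding subunit of the SET1 complexes, changed by 0.17 (limma adjusted p 0.103), and Ash2l, a core subunit of all MLL and SET1 complexes, by 0.13 (0.261). In the same list of subunits and cofactors Dpy30 changed by -0.19 (0.142) and Paxip1 by -0.12 (0.304), both with overlap. Of the 15 tested genes of that list, 7 had a higher mean in DM. Mllt1, the paralog of Mllt3, changed by -0.02 (limma adjusted p 0.867).

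Of 16 genes named as targets of MLL and menin, Hox genes left out, 3 rose and 2 fell (beside 13.9% of all tested genes called), with a median change of 0.04. Zeb2, a zinc finger repressor, stood at 13.42, 13.57 and 13.25 in WT libraries against 13.94, 13.94 and 13.99 in DM libraries, with no overlap and a change of 0.55 (limma adjusted p 0.00638). Mecom, which encodes the stem cell regulator EVI1, changed by 0.52 (0.0189), and Bcl2, which protects against apoptosis, by 0.35 (0.0309). Myb, a driver of progenitor proliferation, stood at 12.25, 12.12 and 11.77 in WT libraries against 11.64, 11.25 and 11.31 in DM libraries, with no overlap and a change of -0.65 (0.0127). Flt3, a cytokine receptor named because it is the remaining call, changed by -0.30 (0.0494). It was a low gene, at 4.68, 4.31 and 4.63 in WT libraries against 4.25, 4.25 and 4.23 in DM libraries. Its mean of 4.39 left it out of the alternative with a mean of at least 5. Without DM replicate 2 Mecom (0.53, adjusted p 0.0516) and Myb (-0.57, 0.0529) lost the call, and Myb also without DM replicate 3 (-0.60, 0.0526). Bcl2 lost it without WT replicate 1 (0.38, adjusted p 0.0699), WT replicate 3 (0.32, 0.0678), DM replicate 1 (0.26, 0.0922) or DM replicate 2 (0.37, 0.0829), after quantile normalization (0.25, 0.0924) and with no filter on the mean (adjusted p 0.0651). Flt3 lost it in 10 of 13 alternatives, among them each fit without 1 library except WT replicate 2 (-0.23 to -0.30, adjusted p 0.101 to 0.163). Meis1, the best known cofactor of Hox proteins among these targets, had a change of -0.09 (limma adjusted p 0.626). The targets thus moved in both directions. Myb and Flt3 also stand in the list of 10 stem and progenitor markers, in which 1 gene rose and 2 fell.

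**Figure D4:**
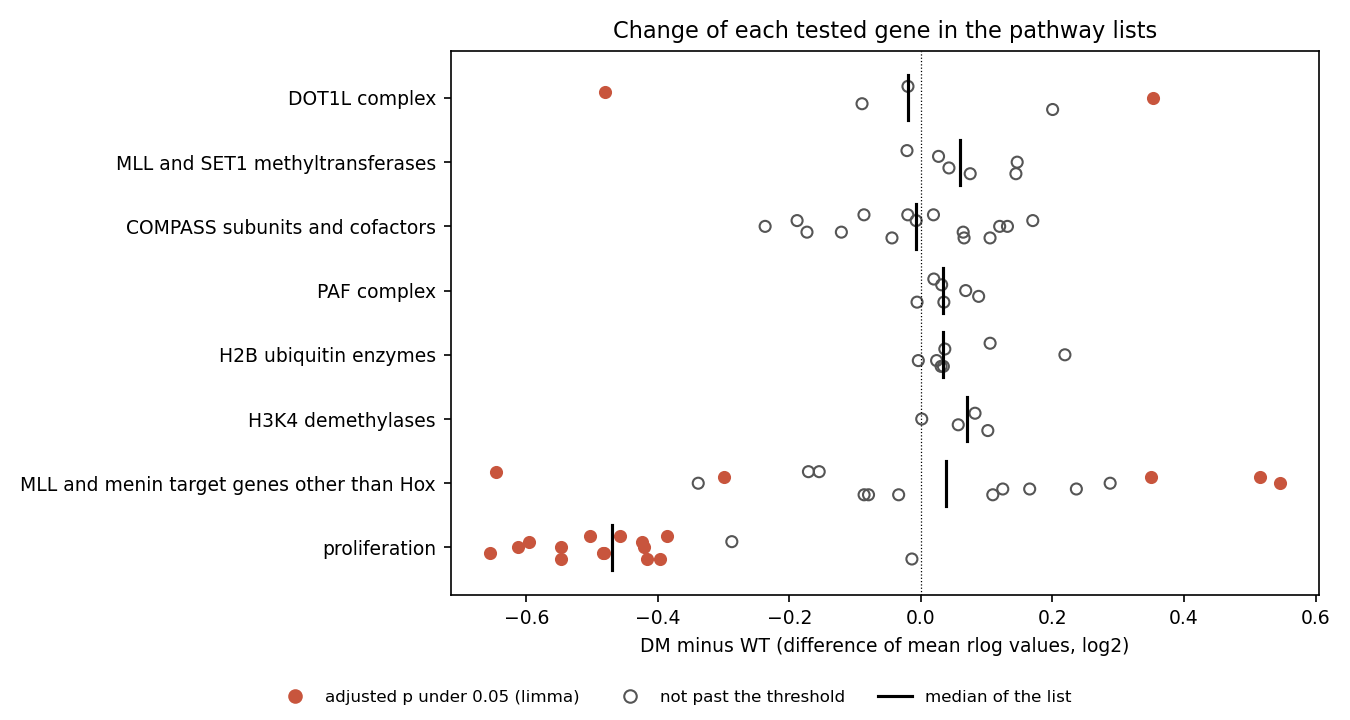
Change (horizontal axis, DM minus WT on the log2 scale) of each tested gene in the pathway lists, filled where the limma adjusted p is under 0.05, with a line at each list's median. Of the 43 genes in the top 6 lists, Mllt6 and Mllt3 are filled, 5 of 16 target genes are filled in both directions, and 14 of 16 proliferation genes are filled, all lower in DM.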

How the data were processed

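The authors deposited 1 table of regularized logs (rlog values, log2 scale), 1 column per library, which holds no counts, so depth is unknown. The unit was inferred from the table's name and from values that are not whole and nearly constant at the low end. The submitters' processing notes name cutadapt 2.6, STAR 2.7.3, DESeq2 1.30.0 and build mm10; the counting tool, strand and annotation are not given in the sources used here. Rlog values are shrunken toward each gene's mean, so changes are understated, most of all for low genes. The 142699 lines were merged into 55487 genes, since lines of a gene were identical. GENCODE M21 on GRCm38, matched by versioned ID for 98.1% of genes, gave coordinates, biotypes and lengths; promoter windows came from RefSeq on GRCm38.p6.

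A linear model with a mean-variance trend (limma 3.58.1 in R 4.3.3, lmFit and eBayes) compared DM with WT across all 18766 genes with a mean of at least 3, with Benjamini-Hochberg adjustment over all of them and a threshold of 0.05. Called means past that threshold. The fit was tested on simulated data with 50 genes changed at each size. It called 5 of 50 at a log2 change of 0.25, 37 of 50 at 0.5, 47 of 50 at 1 and 50 of 50 at 2, and 6 unchanged genes. The changed genes were drawn from all levels and were a far smaller share than the 13.9% called in the data. These rates therefore do not give the rate at which changes of the members would be called. Partner genes were compared by exact permutation in scipy 1.17.1. The alternatives were no filter, a mean of at least 5, no trend, quantile normalization, median centring, protein-coding genes only, a GC and length correction, a replicate block and each library left out; count models were left out because they need counts. Same-numbered libraries had correlated deviations (0.491, 0.116 and 0.0412 for replicates 1 to 3) that did not all pass 0.1, so the numbers were not taken as pairs. All 3 values were positive, and they were not compared with those of differently numbered libraries, so pairing was not settled. All members are named; other genes named were the called genes of each list with the largest changes (up to 4), partners of members and the 3 nearest profiles to a called member, and Flt3, B3galt2, Dnajc1, Epop, Cisd3, Snapc3, Wac, Ash2l, Kmt2c, Meis1, Pagr1a, Kit, Gata2, Cpa3, Lyz2, Il7r and the promoters shown were chosen after their values were seen. Mmp8, Dpy30, Paxip1, Ap3d1 and Mapk6 were also named after their values were seen. The members, lists and pairs were chosen with earlier results of these data known, and the range of means from 10 to 13 was chosen after the data were seen.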

Additional observations from a re-analysis of the deposited data

How the results depend on the processing

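The number of members called was 1, and 0 to 2 with any 1 library left out (0 without WT replicate 1), 2 with a mean of at least 5, with protein-coding genes only or with the GC and length correction, 3 after centring on the median and 4 after quantile normalization. With the replicate block 2 members were called, Mllt6 and Psip1, beside 3742 genes in all. Since pairing was not settled, this is given as a setting only. The number of all genes called was 2611 and ran from 1119 to 3475 with any 1 library left out. Mllt6, Dot1l, Kmt2a, Mllt10, Men1 and Psip1 kept their direction in all 14 alternatives. Changes close to 0 turned, and with any 1 library left out they reached -0.039 and 0.049 for Paf1, 0.053 for Leo1, -0.058 for Mllt1, 0.051 for Rtf1 and 0.074 for Wdr61. After quantile normalization Ctr9 was at -0.014, Cdc73 -0.031, Leo1 -0.044, Kmt2b -0.064, Rtf1 -0.095 and Wdr61 -0.053. After centring on the median Leo1 was at -0.0011 and Rtf1 at -0.013, and after the GC and length correction Rtf1 was at -0.018. Without WT replicate 1 Paf1 was at 0.0090, without WT replicate 2 at 0.0021 (and Mllt1 at 0.016), and without DM replicate 1 at 0.049 (and Rtf1 at -0.0057). Without WT replicate 3 Leo1 was at -0.0018, Rtf1 at -0.014 and Wdr61 at -0.026, and without DM replicate 3 Mllt1 was at 0.00092. Cdc73 minus Paf1 was 0.07 and ran from -0.0036 (without DM replicate 1) to 0.11. The cause was not tested for these turns. The smallest change called among genes with a mean of 10 to 13 was 0.21, above the changes of Dot1l, Men1 and Kmt2a in size. It is not a limit for each gene, since Psip1 (-0.24) and Ube2a (0.22) exceeded it in size and were not called. No depth limit can be given.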
